A study of Solanum lycopersicum with 36 samples.

Results

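The members described are 41 named small RNA sequences of 23 to 25 nt from tomato leaf, among 765 distinct sequences of the deposited miRNA table, of which 335 carry a miRNA name and the others are candidates without one. They are the named sequences in that length range outside miR156 to miR172, miR319, miR390 to miR408, miR482, miR827, miR1919, miR2111, miR5300 and miR6022 to miR6027, each sequence counted once. The deposited names start with the prefix of the species whose miRNA entry was matched, so the members were taken over all prefixes: 31 names start with stu (potato), 8 with sly (tomato), 1 with gma (soybean) and 1 with csi (sweet orange). By length, 37 members had 24 nt, 4 had 23 nt and none had 25 nt. They fall into 20 families, and 12 of these had 1 sequence.

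Leaves came from tomatoes of the cultivar ‘Jinlingmeiyu’ that were 24 days old when water was withheld from one set of plants. After 3 days, the control plants (watered) and the drought plants (water withheld) were kept at 26 °C by day, and the heat plants (watered) and the combination plants (water withheld) at 38 °C. The treatments lasted 48 h, and leaves taken at 36 h were sequenced. Each of the 4 treatments has 3 small RNA libraries and 3 degradome libraries. Nothing in the labels ties a library to 1 plant, so p-values measure the spread between these libraries.

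Plant miRNAs are cut from hairpin precursors, mostly by the dicer DCL1, and the usual product is shorter than the members here and starts with uridine, the base that the argonaute protein AGO1 prefers. Small RNAs of 24 nt are mostly siRNAs, which RNA polymerase IV, RDR2 and the dicer DCL3 make from repeats and transposons. They are loaded into AGO4 and its relatives, which prefer adenosine at the first base, and direct DNA methylation to matching loci. A smaller set of hairpins is also cut by DCL3, and in rice such long miRNAs direct methylation as well. A degradome library reads the 5′ ends of uncapped mRNA fragments, and an end within a predicted pairing is taken as a cut by a miRNA.

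Of the members, 31 carry MIR and an arm (p5 or p3) in the name, for a sequence read from a precursor arm that has no miRNA entry of its own, and 10 are named for an entry sequence. A suffix such as 1ss13TC counts the substitutions and gives position, entry base and read base. Such suffixes were in 32 of the 41 names, with 43 substitutions in all, and the read base stood at the stated position in all 43. The 8 most abundant members held 88.4% of the members' reads and are shown first, 5′ to 3′ with T for U, as the deposited table gives them. Capitals mark bases 2 to 8, called the seed here. The paper describes pairing of plant miRNAs with their targets as extensive, so it is not limited to these bases.
sly-MIR1917-p3_2ss14CA19TC: aGGCTTTAgggacatatacaaaga
sly-MIR9474-p3: aAATGAGTggctaagtcgatggag
stu-MIR7983-p5_1ss20GA: aGCGACATtggttctaatgacact
sly-MIR1917-p5_1ss13TC: aGTCTTTAccggcattagttaagt
stu-MIR7983-p3_1ss4GA: aTGACACTtaactaatgccggta
sly-miR1916_L+2R+2: aTATTTCActtagacacctcaact
stu-MIR8006-p5: aTCTGCATaccatttacgatagtt
sly-MIR1916-p3: aATGAACAtcgcctacttgaagtg

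All 8 start with A, and their seeds differ. Over all 41 members, 38 started with A, 2 with G, 1 with T and none with C, and 97.8% of the members' reads started with A. The exceptions were stu-miR8025-3p_1ss9CA (T) and sly-MIR1918-p3 and stu-MIR7984c-p5_1ss15AT (G). The candidates of the same length started with A in 206 of 252 (81.7%), and the 26 named sequences of 23 to 25 nt from the left-out families in 6 (23.1%). Among the 56 named sequences of 20 to 22 nt outside those families, 16 (28.6%) started with A and 35 (62.5%) with T. Length and name chose these lists, and the first base did not. Median GC content of the members was 37.5%, from 8.33% in stu-MIR8007b-p3 to 66.7% in stu-MIR7985-p5_2ss1GA20GA, with the same median in the candidates.

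Several members were related by sequence. Of the 820 pairs of members, 28 comparisons shared a run of at least 12 bases on the same strand or as reverse complement, and 16 members took part. Seeds were shared within the families miR7984 and miR5303 only. The seed AAGGTAT occurred in 4 members named stu-MIR7984a-p5, which are shown because they share their first 15 bases (capitals here) and part only after them.
stu-MIR7984a-p5_1ss24GT: AAAGGTATATATGTGcccacgtgt
stu-MIR7984a-p5_1ss17CT: AAAGGTATATATGTGctcacgtgg
stu-MIR7984a-p5_1ss16CT: AAAGGTATATATGTGtccacgtgg
stu-MIR7984a-p5_2ss16CA17CA: AAAGGTATATATGTGaacacgtgg

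The other shared seed, TATTTTT, was that of stu-miR5303g_1ss20GA and stu-miR5303g_2ss12GA17TC. A run of 17 bases, in capitals, was common to 4 members of family miR5303. It sat at the same position in both stu-miR5303g sequences shown, which differ at base 2, and further along in the others. The seeds of these 4 members differ.
stu-miR5303g_1ss20GA: atATTTTTGAAGAGTCTGAacaac
stu-miR5303g_2ss2TC20GA: acATTTTTGAAGAGTCTGAacaac
stu-miR5303j_1ss21GA: aatATTTTTGAAGAGTCTGAacaa
stu-MIR5303i-p3_2ss1TA23GT: acgatATTTTTGAAGAGTCTGAtc

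Other members were each other's complement. The whole of stu-MIR7984c-p3_1ss1CA was the reverse complement of stu-MIR7984a-p5_1ss24GT over 24 bases. A run of 22 bases joined stu-MIR7984a-p5_1ss16CT and stu-MIR7984c-p3_1ss11GA in the same way. The abundant sly-MIR1917-p5_1ss13TC was complementary to stu-MIR7983-p3_1ss2CG over 22 bases and to stu-MIR7983-p3_1ss4GA over 18, although the names give different families. These members are shown as read, with the complementary run to sly-MIR1917-p5 (or, in the last line, to stu-MIR7984a-p5_1ss24GT) in capitals.
stu-MIR7983-p3_1ss2CG: agTTAACTAATGCCGGTAAAGACT
stu-MIR7983-p3_1ss4GA: atgacACTTAACTAATGCCGGTA
stu-MIR7984c-p3_1ss1CA: ACACGTGGGCACATATATACCTTT

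The strands of a miRNA duplex pair along most of their length. Where 1 sequence of each arm was listed under a precursor name, 8 pairs held at least 1 member, and the longest run of perfect complement was 3 to 5 bases in 7 of them and 14 in that of stu-MIR7984b-p3 with its arm of 21 nt. The 43 pairs without a member had a median run of 7 bases (2 to 19), and 8 of them had 5 or less. The arms stu-MIR7982a-p5 and stu-MIR7982a-p3_1ss23TG overlapped by 16 bases on the same strand, and stu-MIR7983-p5_1ss20GA and stu-MIR7983-p3_1ss4GA by 8, so each of these 2 pairs reads as 1 stretch of the same strand. Bulges, G-U pairs and offset ends were not scored.

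The deposited values are normalized reads, that is, reads multiplied by 1 factor per library, and the 12 libraries summed to between 961770 and 1208899. Taking the largest step that left at least 80% of values whole (within 0.01), 1 read was worth 0.633 normalized reads in combination 2 and 1.29 in drought 2, with 1.26 in combination 1. Of the 6007 values above 0 in the table, 305 (5.08%) lay under 5 reads, so a value listed at 0 does not show that no read was there. Of the 419 sequences that passed the filter below, 27 were higher and 54 lower at 38 °C. The pairwise correlation of libraries ranged from 0.815 to 0.955 on the log2 scale, and no library repeated another.

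The 41 members held 0.162% of all normalized reads, and 4 of them held 70.0% of that. Family miR1917 took 38.9% of the members' reads, miR7983 20.8%, miR9474 18.2%, miR1916 7.42% and miR8006 3.43%. Only 9 members were above 0 in all 12 libraries, 17 were above 0 in fewer than 6, and 5 in a single library. Family miR7984 was the largest by number with 9 sequences, but held 1.43% of the members' reads, and its highest mean was 5.04 normalized reads.

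**Figure D1:**
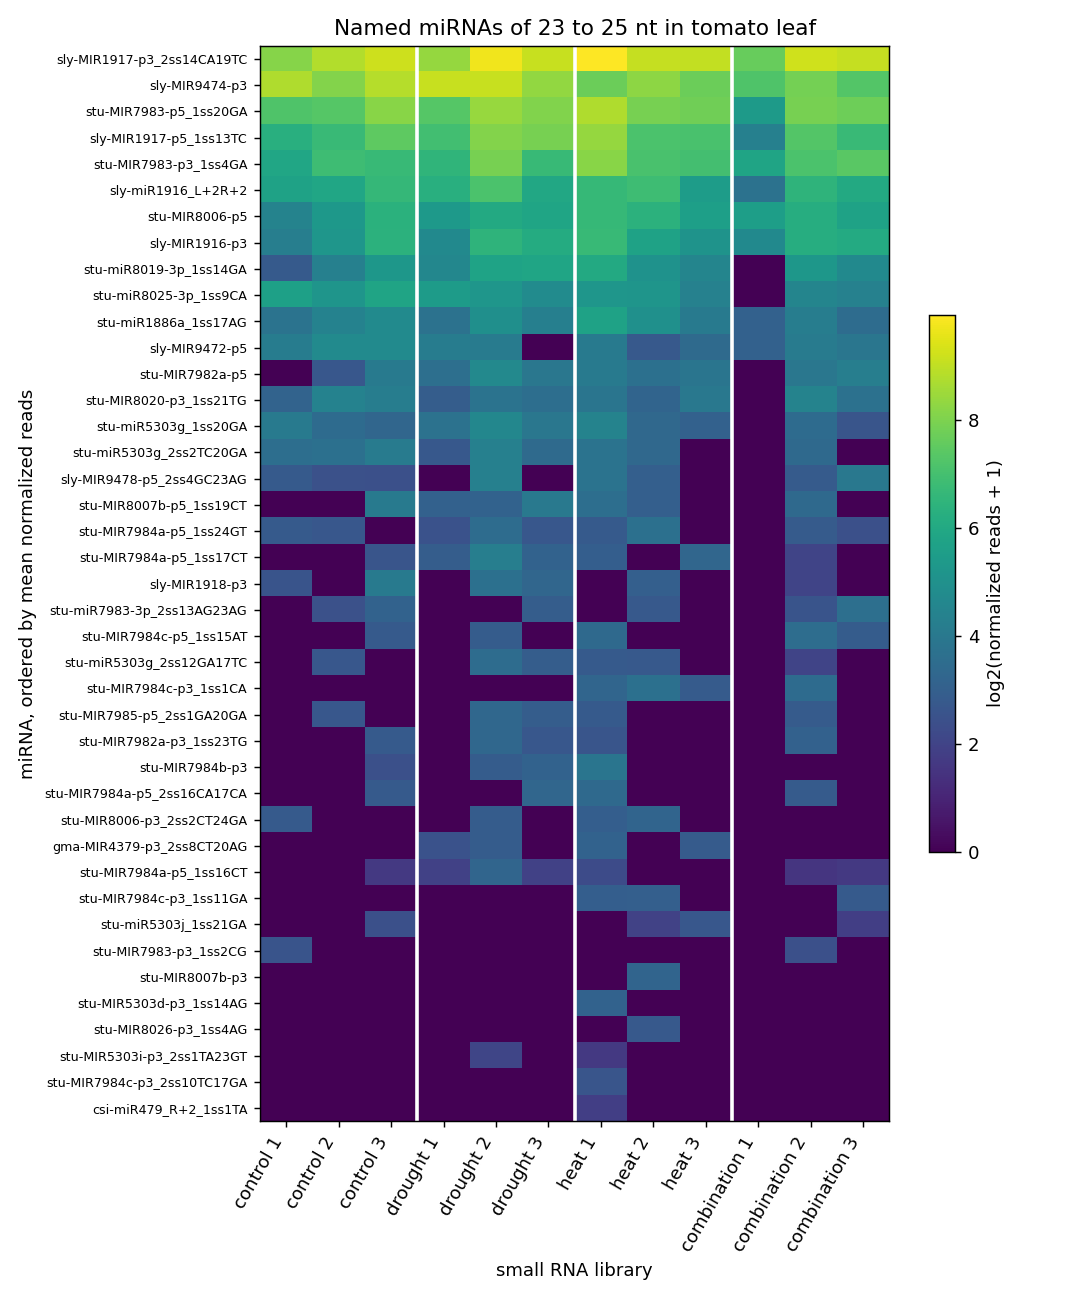
Level of each of the 41 members (rows, ordered by mean) in the 12 small RNA libraries (columns, white lines between treatments), as log2(normalized reads + 1). The 8 upper rows are above 0 in every library, while most lower rows are at 0 in most, and combination 1 has 31 of 41 members at 0.

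Summed over members, the control libraries gave 1239, 1407 and 2168 normalized reads, and the drought libraries 1563, 2888 and 1904. The heat libraries gave 2946, 1844 and 1476, and the combination libraries 563, 1827 and 1518. As a share of all reads, this was 0.169% ± 0.0557 (SD, n = 6) at 26 °C and 0.158% ± 0.0753 (SD, n = 6) at 38 °C, and 0.180% ± 0.0585 (SD, n = 5) at 38 °C without combination 1. The ranges overlapped, with heat 1 and drought 2 highest and combination 1 lowest. Combination 1 listed 10 members above 0, against 35 in heat 1.

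Combination 1 stood apart in the candidates of 23 to 25 nt as well, with 1384 normalized reads against 2321 to 5880 in the other libraries, and it listed 372 sequences above 0 of all kinds, against 433 to 634. Among the 18 members that passed the filter, 15 had their lowest value in combination 1, alone or tied at 0 with other libraries. Of these 15, 8 were at 0 there. Heat 1 (8) or drought 2 (5) held the highest value of 13 members. Scaling each library to its candidates of 23 to 25 nt, chosen after seeing the data, narrowed the spread within groups in 17 of the 18, from a median SD of 1.00 to 0.79 on the log2 scale. The exception was sly-MIR9474-p3, whose SD rose from 0.39 to 0.66. The part of this shared library pattern in the results that follow was not tested beyond the values given without combination 1 and with that scaling.

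**Figure D2:**
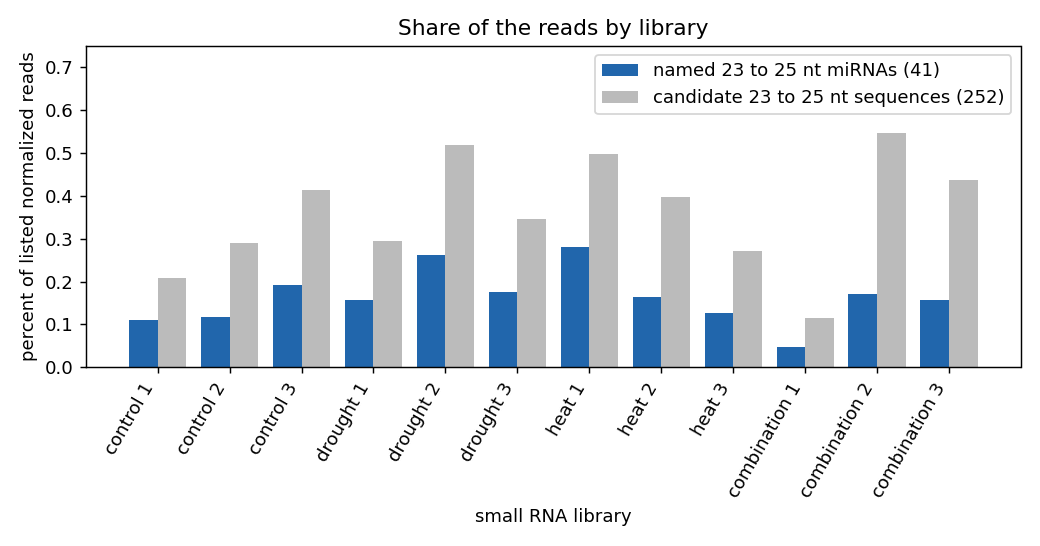
Percent of all listed normalized reads in the 41 members (blue) and in the 252 candidates of 23 to 25 nt (grey), one pair of bars per small RNA library. Both shares are lowest in combination 1 (0.0471% and 0.116%), and drought 2 and heat 1 have the highest share of members (0.262% and 0.280%).

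The change at 38 °C was tested for the 18 members that reached 10 normalized reads in 3 or more libraries, with limma on log2(normalized reads + 1), a fit on 419 sequences and Benjamini-Hochberg adjustment over all of them. A sequence was called at an adjusted p under 0.05. On this scale the added 1 pulls the fold change of low sequences towards 0. A value listed at 0 where a few reads may have been present can instead enlarge it. Of the 18 members, 1 was called, sly-MIR9474-p3, and it was lower at 38 °C, while 19.3% of all tested sequences were called, 12.9% as lower. An unadjusted p under 0.05 was reached by 2 of the 18 members and by 127 of all 419 sequences. The median log2 fold change of the 18 was -0.27 and 12 were below 0, against a median of 0.03 over all sequences and 0.18 over the 103 tested candidates of 23 to 25 nt. Without combination 1 the members' median was 0.14 and 5 of 18 were below 0, so the sign of the median rested on that library, and 7 of the 18 members changed sign. Without combination 2 the median was -0.51.

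The level of sly-MIR9474-p3, the second most abundant member, was 436, 273 and 465 normalized reads in the control libraries and 561, 554 and 323 in drought. It was 209, 306 and 208 in heat and 149, 237 and 154 in combination. All 3 combination libraries lay under all control libraries, as in 17.7% of all tested sequences, and under all drought libraries, as in 18.4%, while heat 2 lay above control 2, so the 6 libraries at 38 °C overlapped with the 6 at 26 °C in that 1 place. Its mean was 435 ± 118 at 26 °C and 211 ± 58.0 at 38 °C (SD, n = 6 each), a log2 fold change of -1.04 (SE 0.22, adjusted p = 0.00409 with limma). Without combination 1 it was -0.98 (adjusted p = 0.00833). With libraries scaled to the candidates the fold change was -1.05, but the adjusted p from limma was 0.0948.

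Within each water regime sly-MIR9474-p3 was also lower at 38 °C, but the test passed only without water. For combination vs drought its log2 fold change was -1.40 (SE 0.31, adjusted p = 0.0104 with limma), and without drought 2 it was -1.27 (adjusted p = 0.0535). The drop for heat vs control was -0.68 (SE 0.31, adjusted p = 0.192), and the difference between these drops, the interaction of heat and drought, did not pass (-0.71, SE 0.44, adjusted p = 0.351). Combination vs control gave -1.11 (SE 0.31, adjusted p = 0.0304), which passed neither without control 1 (adjusted p = 0.117) nor without control 3 (0.13), combination 1 (0.0819) or combination 3 (0.116). For drought vs control the change was 0.28 (SE 0.31, adjusted p = 0.932).

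The other arm of this precursor, sly-MIR9474-p5, has 22 nt and so is no member. It had 285 ± 81.5 normalized reads at 26 °C and 178 ± 59.9 at 38 °C (SD, n = 6 each), a log2 fold change of -0.69 (SE 0.25, adjusted p = 0.0761 with limma). The ratio of the p3 to the p5 arm was 1.36, 1.46 and 1.43 in control, 1.58, 1.60 and 1.85 in drought, 1.06, 1.16 and 1.04 in heat and 1.71, 1.34 and 1.08 in combination. The ratio was above 1 in every library and overlapped between temperatures through combination 1. The ratio was looked at because the p3 arm was called, so it was not tested.

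**Figure D3:**
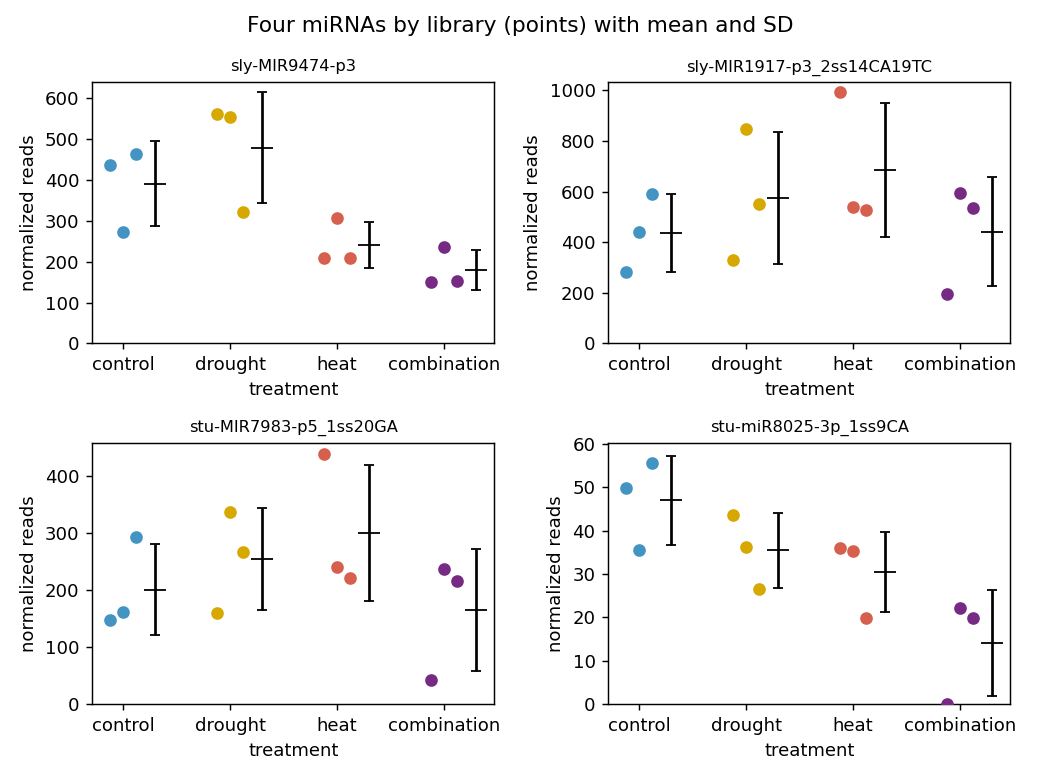
Normalized reads (vertical axes, from 0) of sly-MIR9474-p3, sly-MIR1917-p3, stu-MIR7983-p5 and stu-miR8025-3p in each small RNA library (points) by treatment, with mean and SD (n = 3) beside them. sly-MIR9474-p3 and stu-miR8025-3p are lower in combination than in control and drought without overlap. The treatments of sly-MIR1917-p3 and stu-MIR7983-p5 overlap, and each sequence shown has its lowest point in combination 1.

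The most abundant member, sly-MIR1917-p3, had 281, 442 and 588 normalized reads in control, 328, 847 and 549 in drought, 991, 539 and 527 in heat and 197, 594 and 535 in combination. Its treatments overlapped, and the log2 fold change at 38 °C was 0.11 (95% interval -0.61 to 0.83, adjusted p = 0.861 with limma). The other arm of this name, sly-MIR1917-p5, had 76.6, 107 and 177 in control, 123, 272 and 239 in drought, 335, 139 and 136 in heat and 18.97, 155 and 107 in combination. The p3 arm was the more abundant in 12 of 12 libraries, by a median of 3.75 times, from 2.30 in drought 3 to 10.4 in combination 1. The change of sly-MIR1917-p5 at 38 °C was -0.41 (95% interval -1.44 to 0.62), and 0.04 without combination 1.

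In family miR7983, stu-MIR7983-p5_1ss20GA had 148, 161 and 293 normalized reads in control, 159, 338 and 266 in drought, 438, 241 and 222 in heat and 41.7, 237 and 216 in combination. Its partner stu-MIR7983-p3_1ss4GA had 58.7, 117 and 103 in control, 90.1, 237 and 103 in drought, 294, 135 and 125 in heat and 55.6, 139 and 169 in combination. Both peaked in heat 1 and were lowest in combination 1. All treatments of the p5 form overlapped. For the p3 form every heat library lay above every control library, as in 13.1% of all tested sequences, and the other treatments overlapped. Its log2 fold change for heat vs control was 0.93 and was not called (adjusted p = 0.298 with limma). The p5 form was the more abundant in 11 of 12 libraries (median ratio 1.74, lowest 0.750 in combination 1). Their changes at 38 °C were -0.16 (95% interval -1.06 to 0.73) and 0.34 (-0.44 to 1.12), and without combination 1 they were 0.24 and 0.58. stu-miR7983-3p_2ss13AG23AG, named for the entry with 2 substitutions, reached 11.3 normalized reads at most and was not tested, like stu-MIR7983-p3_1ss2CG.

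sly-miR1916_L+2R+2, a tomato miRNA read here with bases added at both ends, had 51.7, 58.3 and 97.5 normalized reads in control, 75.9, 139 and 61.9 in drought, 101, 114 and 44.6 in heat and 12.6, 87.9 and 65.2 in combination. The opposite arm, sly-MIR1916-p3, had 17.9, 36.5 and 83.5 in control, 25.6, 86.7 and 69.6 in drought, 103, 53.0 and 33.5 in heat and 25.3, 72.1 and 66.9 in combination. Neither separated the treatments. Their changes at 38 °C were -0.38 (95% interval -1.35 to 0.60) and 0.23 (-0.78 to 1.23), and without combination 1 they were 0.04 and 0.46. The entry arm was the more abundant in 8 of 12 libraries.

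The member with the highest log2 fold change at 38 °C, stu-MIR8006-p5, had 20.9, 38.3 and 80.1 normalized reads in control, 40.8, 64.7 and 57.5 in drought, 101, 82.4 and 48.3 in heat and 46.8, 72.1 and 52.2 in combination. The groups overlapped, at 0.47 (95% interval -0.24 to 1.18, adjusted p = 0.375 with limma).

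Besides sly-MIR9474-p3, the lowest log2 fold changes at 38 °C were those of stu-miR5303g_2ss2TC20GA, stu-miR8025-3p_1ss9CA and stu-miR5303g_1ss20GA, and none of them was called. stu-miR8025-3p_1ss9CA, the single member that starts with T, had 49.7, 35.5 and 55.7 normalized reads in control, 43.6, 36.2 and 26.5 in drought, 36.1, 35.3 and 19.8 in heat and 0, 22.1 and 20.0 in combination. Every combination library lay under every control library, as in 17.7% of all tested sequences, and under every drought library, as in 18.4%. Its log2 fold change at 38 °C was -1.41 (SE 0.66, adjusted p = 0.172 with limma), and -0.67 without combination 1. For combination vs control it was -2.59 (SE 0.93, adjusted p = 0.0984), and this passed with pseudocount 5 (-1.77, adjusted p = 0.0435) and without combination 2 (-3.36, adjusted p = 0.0456). A form of 21 nt with the same first 21 bases was above 0 in 3 libraries, and the highest of these was 6.96.

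stu-miR5303g_2ss2TC20GA had 10.9, 11.8 and 16.5 normalized reads in control, 5.69, 19.4 and 9.95 in drought, 12.9, 9.42 and 0 in heat and 0, 9.49 and 0 in combination. Its log2 fold change was -1.90 (SE 0.81, adjusted p = 0.129 with limma), and it was at 0 in 3 of the 6 libraries at 38 °C. Without combination 2 it was -2.46 and passed (adjusted p = 0.0365), as did combination vs control (-3.80, adjusted p = 0.0473). stu-miR5303g_1ss20GA, which differs from it by 1 substitution in the name, had 15.9, 10.0 and 8.70 in control, 12.3, 23.3 and 14.4 in drought, 20.6, 9.42 and 7.44 in heat and 0, 10.1 and 5.22 in combination. Its change was -1.02 (95% interval -2.27 to 0.24), and -0.51 without combination 1. For combination vs drought it passed without combination 2 (-2.78, adjusted p = 0.0444 with limma).

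The remaining 7 tested members did not pass either, and each had an interval that included 0. stu-miR8019-3p_1ss14GA (mean 31.8 normalized reads) changed by -0.50 (95% interval -2.25 to 1.25) and stu-MIR8020-p3_1ss21TG (mean 12.2) by -0.47 (-1.94 to 0.99). Both were at 0 in combination 1, and without that library their values were 0.33 and 0.21. The whole of stu-MIR8020-p3_1ss21TG lies within a more abundant candidate of 24 nt (mean 84.5), which has 1 more base at its 3′ end. stu-MIR8007b-p5_1ss19CT changed by -0.72, sly-MIR9472-p5 by -0.09 and stu-miR1886a_1ss17AG (mean 21.2) by -0.05. stu-MIR7982a-p5 changed by 0.15 and sly-MIR9478-p5_2ss4GC23AG by 0.27, with intervals from -1.63 to 1.93 and from -1.95 to 2.48.

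**Figure D4:**
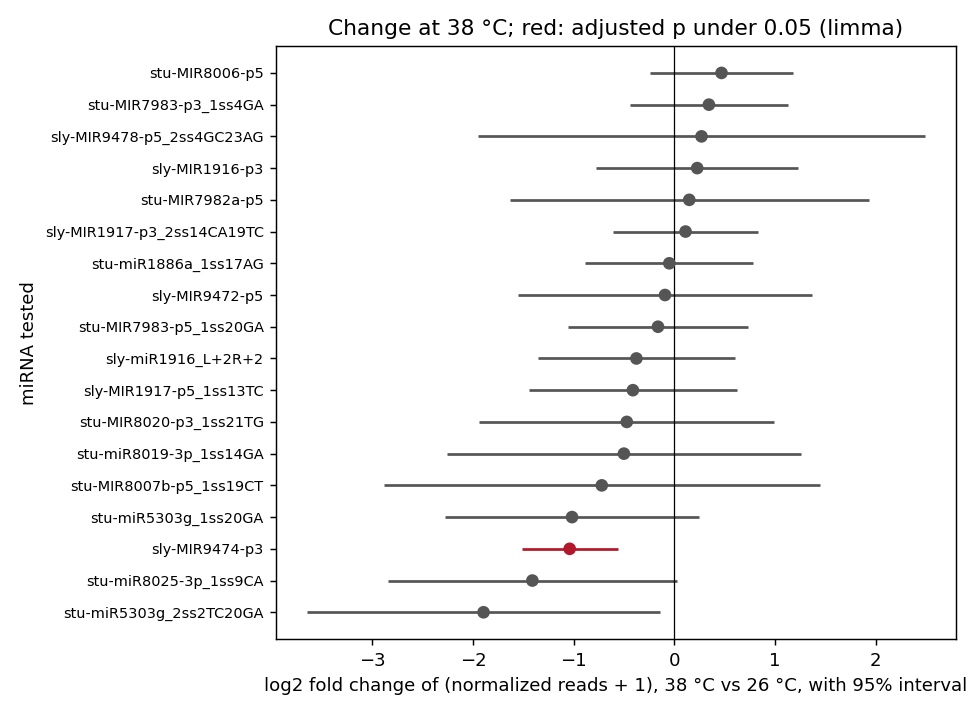
Log2 fold change of normalized reads + 1 for 38 °C vs 26 °C (horizontal axis) with 95% interval for the 18 members tested (rows). Only sly-MIR9474-p3 (red, -1.04) was called, and the intervals of most others include 0.

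The single comparisons gave few calls among the 18 members. For heat vs control 0 members were called with limma, against 15% of all sequences, with 1 at an unadjusted p under 0.05 and a median log2 fold change of 0.57. With 1 library left out, that median ran from 0.15 (without heat 1) to 0.86 (without control 3). For combination vs drought 1 was called (sly-MIR9474-p3), against 11.9%, with 4 at an unadjusted p under 0.05. The median was -0.96, from -1.56 (without combination 2) to -0.15 (without combination 1). For combination vs control 1 was called (sly-MIR9474-p3), against 12.6%, with 3 at an unadjusted p under 0.05. The median was -0.68, from -1.12 (without combination 2) to 0.21 (without combination 1). For drought vs control 0 members were called by limma, against 0% of all sequences, with 0 at an unadjusted p under 0.05 and a median of 0.37, which was 0.11 without control 1 or without drought 2 and 0.62 without control 3. The interaction of heat and drought was called in 0 members, against 5.01%, with 1 at an unadjusted p under 0.05. Its median was -1.24, from -1.72 (without combination 2) to -0.63 (without combination 1). The 103 tested candidates of 23 to 25 nt had medians of 0.88 for heat vs control and -0.48 for combination vs drought. Their medians were -0.01 for combination vs control, 0.43 for drought vs control and -1.52 for the interaction. Over all tested sequences the medians were 0.14, -0.15, -0.04, 0.03 and -0.13, in the same order. An unadjusted p under 0.05 with limma was reached by 104, 110, 99, 34 and 86 of all 419 sequences, again in that order. These comparisons share the same libraries. No tested member had its 6 libraries at 38 °C all above or all under the 6 at 26 °C, while 41 of 419 sequences (9.79%) did.

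The 23 members that did not pass the filter had highest values between 2.58 and 18.1 normalized reads. Of all 41 members, 7 were above 0 in at least 1 library at 38 °C and at 0 in all 6 at 26 °C, and 0 showed the opposite. Over all 765 sequences, 11.5% were above 0 at 38 °C only and 4.31% at 26 °C only, and among the candidates of 23 to 25 nt 12.7% and 1.98%. All 7 were above 0 in heat 1 or heat 2. Heat 1 had the highest number of members above 0, and 5 reads were worth 3.16 to 6.47 normalized reads depending on the library, so these values are near the lowest that the table holds.

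Among the 7, stu-MIR7984c-p3_1ss1CA had 8.60, 11.8 and 6.20 normalized reads in heat and 0, 10.1 and 0 in combination, and was listed at 0 in all control and drought libraries. Every heat library lay above every control library, as in 13.1% of all tested sequences. This member is not among those sequences, since it did not pass the filter. When no filter was used it was called for 38 °C vs 26 °C (log2 fold change 2.21, adjusted p = 0.0446 with limma) and for heat vs control (3.26, adjusted p = 0.0426). Its exact reverse complement, stu-MIR7984a-p5_1ss24GT, had 5.97, 5.47 and 0 in control, 4.74, 10.4 and 5.53 in drought, 6.02, 11.8 and 0 in heat and 0, 6.33 and 4.35 in combination, so this strand was listed at both temperatures. stu-MIR7984c-p3_1ss11GA was above 0 in heat 1 (6.88), heat 2 (7.07) and combination 3 (6.08). The other 5 were above 0 in 1 library each, namely stu-MIR8007b-p3, stu-MIR5303d-p3_1ss14AG, stu-MIR8026-p3_1ss4AG, stu-MIR7984c-p3_2ss10TC17GA and csi-miR479_R+2_1ss1TA.

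The other members that were not tested were above 0 at both temperatures. In family miR7984 these were stu-MIR7984a-p5_1ss17CT, the highest of them with 18.1 normalized reads in drought 2, stu-MIR7984c-p5_1ss15AT, stu-MIR7984b-p3, stu-MIR7984a-p5_2ss16CA17CA and stu-MIR7984a-p5_1ss16CT. sly-MIR1918-p3 reached 15.7 in control 3 and stu-miR5303g_2ss12GA17TC 10.4 in drought 2. The rest were stu-miR5303j_1ss21GA, stu-MIR5303i-p3_2ss1TA23GT, stu-MIR7985-p5_2ss1GA20GA, stu-MIR7982a-p3_1ss23TG, stu-MIR8006-p3_2ss2CT24GA and gma-MIR4379-p3_2ss8CT20AG, each under 10 normalized reads in every library.

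The degradome lists gave sites for 8 of the 41 members (19.5%), against 35.6% of all sequences, 6.35% of the candidates of 23 to 25 nt and 39.3% of the named sequences of 20 to 22 nt outside the left-out families. None of the 10 most abundant members had a site. The highest mean among members with a site was 11.5 normalized reads, that of stu-miR5303g_1ss20GA, and the highest without one was 535. The 8 members stood on 12 lines, which covered 8 transcripts and 9 pairs of a transcript and a treatment. Of the 12 lines, 11 had reads in 1 degradome library, and in 4 the member itself was listed at 0 in the small RNA libraries of that treatment. Members of family miR5303 took 10 of the 12 lines.

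Only 1 transcript was listed in more than 1 treatment. Solyc01g008100.3.1, which the lists annotate with the Arabidopsis gene At4g14100, was assigned to stu-MIR5303d-p3_1ss14AG with 41.3, 0 and 0 normalized reads in control and 0, 75.9 and 74.4 in drought. This is 1 read in control 1 and 2 reads in each of drought 2 and drought 3. The member was listed at 0 in all control and drought small RNA libraries. The same transcript was also listed for stu-miR7997c_R-3_1ss3AG and, in control only, for sly-MIR5303-p5_1ss4GA, and neither is a member.

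The highest value was on Solyc04g007830.3.1 with 214 normalized reads (5 reads) in drought 1 and 0 in drought 2 and drought 3. It was listed for stu-miR5303g_1ss20GA and stu-miR5303g_2ss2TC20GA, which share a run of 22 bases, and for 1 sequence that is no member. Solyc11g007360.1.1 had 114 normalized reads (3 reads) in drought 2 only, and was listed for both and for stu-miR5303g_2ss12GA17TC, besides 4 sequences that are no members. These lines therefore do not tell which of the related sequences a site belongs to.

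Each of the other 5 sites rested on 1 read. Solyc12g010350.2.1, annotated as RPL39C, a ribosomal protein of the large subunit, was listed for stu-MIR8007b-p3 in drought 1 (42.8 normalized reads). In heat 3, Solyc01g009850.3.1 was listed for stu-MIR7985-p5_2ss1GA20GA and Solyc06g005620.3.1, annotated as the zinc transporter ZIP2, for stu-miR5303j_1ss21GA (40.1 normalized reads each). In combination 2, Solyc03g034060.3.1, with the symbol PERK5 but described as a probable disease resistance protein, was listed for stu-miR5303j_1ss21GA and Solyc11g067080.2.1, with the symbol D6PKL2 but described as a hypothetical protein, for stu-MIR5303i-p3_2ss1TA23GT (36.01 normalized reads each). With a minimum of 2 reads in 1 library, 3 of the 9 pairs of a transcript and a treatment were left, all of them in drought. No site was listed in all 4 treatments, so the change at 38 °C was not tested for any site, and a site missing from a list has no value here.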

How the data were processed

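The deposited small RNA and degradome values are a signal that the authors made, reads multiplied by 1 factor per library, and the formula is not given in the sources used here. The authors removed matches to other RNA classes and repeats and aligned the small RNA reads to miRBase 21.0 entries of plants, and some values are fractions of a read. For the degradome the authors used CleaveLand 3.0 on ITAG3.2 transcripts. Circular RNA was not used here. Precursor positions were not looked up.

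Sequences repeated over lines were counted once (41 members on 43 lines). Those that reached 10 normalized reads in 3 or more libraries entered limma 3.58.1 in R 4.3.3 on log2(value + 1), with 1 mean per treatment over all 12 libraries, a mean-variance trend, two-sided tests and Benjamini-Hochberg adjustment over 419 sequences. In simulated data for 38 °C vs 26 °C on 419 sequences, 62% of 4-fold and 41% of 2-fold changes were called, with 3 false among 106 calls over 5 runs. The noise was drawn independently for each sequence, so the library pattern shared by members and candidates was not simulated. 1 degradome read was taken as the most frequent value of a library, or a division of it by 2 where that made at least 90% whole. 91.1% to 94.9% of values were then whole within 0.01. Members, lists and the naming rule (all members, with full values for those called or among the most abundant) were chosen with earlier results of these data known. Alternatives were scalings, filters, pseudocounts, the replicate block, no trend, only the groups compared and each library left out. Python 3.11.15, pandas 2.3.3, numpy 2.4.6 and matplotlib 3.10.9 were used.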

Additional observations from a re-analysis of the deposited data

Results flagged for a closer look

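Each of the 18 tested members was searched for a library that lay apart from the other 5 at the same temperature, 36 groups of 6 in all, by the gap to its nearest neighbour relative to the group's range (Dixon's 95% value). That value flags about 1 in 20 groups of independent, normally distributed values, and 4 were found. The groups here pool 2 treatments and come from the same libraries, so the 4 cannot be set against that rate. stu-MIR7983-p3_1ss4GA had 236.9 normalized reads in drought 2, above the other libraries at 26 °C. sly-MIR9478-p5_2ss4GC23AG had 19.42 in drought 2. sly-MIR9472-p5 was listed at 0 in drought 3 and above 0 in the other 11 libraries. stu-MIR7982a-p5 was listed at 0 in combination 1 and above 11 in the other libraries at 38 °C.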

How the results depend on the processing

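Of 378 log2 fold changes of members for 38 °C vs 26 °C under the alternatives, 376 kept their side of the threshold, and the other 2 are in the report (sly-MIR9474-p3 with candidate scaling and stu-miR5303g_2ss2TC20GA without combination 2). The sign changed in 28 values of 11 members, 7 of them without combination 1, and none of the 28 was called. sly-MIR9474-p3 was called for 38 °C vs 26 °C in 20 of 20 other settings (-1.17 to -0.97, adjusted p from 0.00232 to 0.0139 with limma). Scaling to the candidates of 23 to 25 nt, chosen after seeing the data, called 0 members for 38 °C vs 26 °C, 0 for combination vs drought and 0 for combination vs control, against 1 each as reported. Without a filter, 2 members were called for 38 °C vs 26 °C and 1 for heat vs control, the addition being stu-MIR7984c-p3_1ss1CA. Combination vs control gave 0 calls with equal totals, no trend or only the groups compared, and 2 with pseudocount 5. Leaving out each library gave 1 to 2 calls for 38 °C vs 26 °C (2 without combination 2), 0 to 2 for combination vs drought (0 without drought 2) and 0 to 3 for combination vs control (0 without control 1, control 3, combination 1 or combination 3, and 3 without combination 2). The share of reads in members ranged from 0.151% to 0.173%. A minimum of 2 degradome reads, also chosen after seeing the data, left 3 sites of 9. The cause of these differences was not tested.

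Over 18 pairs of same-numbered libraries r ran from -0.379 to 0.381, with a median of -0.03 and 5 over 0.1. Libraries of different number were not compared, so these values do not show whether replicate numbers pair the samples. With the replicate block, 1 member was called for 38 °C vs 26 °C, 1 for combination vs drought, 1 for combination vs control and 0 in the other 3 comparisons.

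Over all sequences, calls moved by over 1.5 times with candidate scaling (81 to 50 for 38 °C vs 26 °C, 63 to 41 for heat vs control, 50 to 17 for combination vs drought, 53 to 28 for combination vs control and 21 to 8 for the interaction). They also moved without drought 2 (50 to 29), and for combination vs control with only the groups compared (33), without control 1 (35) or without combination 3 (32). Drought vs control had 0 calls, and 2 without a filter, without drought 1 or without combination 1, and 1 without trend or with only the groups compared.

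Few reads limit the 23 members below the filter and all degradome sites, and combination 1 lists the fewest of the members. The 3 libraries a treatment leave wide intervals for low members.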
